A study of Homo sapiens with 30 samples.

Results

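Aldo-keto reductases of the AKR1A, AKR1B and AKR1C subfamilies were described in A549 cells treated with herbal extracts. The 8 genes are AKR1A1, AKR1B1, AKR1B10, AKR1B15, AKR1C1, AKR1C2, AKR1C3 and AKR1C4, out of 60675 genes in the deposited table of expected counts. They were taken by symbol as a family, and AKR1B15 and AKR1B10 were chosen by their levels and fold changes in these libraries. AKR1B10 and AKR1B15 are therefore given as levels and fold changes with no test. The other 6 genes carry the adjusted p of a fit over all genes. The family and the gene lists used below were also chosen with earlier results of these data known. Counts of called members or list genes beside shares of all genes are therefore a description. A549 is a widely used human lung carcinoma line. Treatment lasted 24 h. The ethanol extracts came from the Korean herbal formulas Soshiho-tang, Yijin-tang, Okbyeongpung-san and Soyo-san, and vehicle cells received dimethyl sulfoxide (DMSO) without extract. Doses were 500, 100 and 20 µg/mL; there were 3 libraries of vehicle, 3 per dose of Yijin-tang and of Soshiho-tang, and 2 per dose of Okbyeongpung-san. Soyo-san had 1 library per dose, so its values are given with no test.

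Enzymes of this family use NADPH to reduce aldehydes and ketones to alcohols. The AKR1B enzymes act on glucose, lipid aldehydes and retinal, and the AKR1C enzymes on keto groups of steroids and prostaglandins. Several of the genes are known targets of NRF2, the transcription factor of the antioxidant response, which is constitutively active in A549 because its repressor KEAP1 is mutated.

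Libraries held 19833144 to 38008463 counts, and the vehicle libraries were the shallowest, with 19833144 to 22327652. The 13 mitochondrially encoded messenger RNAs took 10.7% ± 0.205 of counts in vehicle (SD, n = 3), 6.22% to 8.91% in 26 treated libraries and 9.89% in the remaining one. This library, Okbyeongpung-san at 500 µg/mL replicate 2, was also the deepest. Titles put into batch D all 3 libraries of Soyo-san and, at every dose, the Okbyeongpung-san library numbered 3, and the others into batch E, with no statement of what the letters mean. The labels give the vehicle as 0.1% DMSO, while the series text gives another percentage and says that some extracts of the wider study were scaled to their toxicity. Doses here are those of the labels. For the extract libraries no DMSO percentage is stated there. Whether treated and vehicle cells had the same solvent is therefore unknown, and its part in the comparisons with vehicle was not tested. Whether replicates came from different cultures is not in the labels, so p-values measure a spread between libraries that may be technical. All 5 epithelial markers were above 1 CPM (CPM is the count scaled to a fixed, normalised library total), with a summed level of 6039 to 6286 CPM in vehicle and 4708 to 6619 CPM in treated libraries. The 4 alveolar type 2 markers (SFTPA1, SFTPB, SFTPC and NKX2-1) and the 4 hepatocyte markers (ALB, APOA2, TTR and CYP3A4) were all under 1 CPM, as were the 3 endothelial markers. Of the immune and fibroblast markers, only CD68 and COL1A1 were above it.

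The genes lie in 3 places in GRCh38 (GENCODE 29), and close copies among them share sequence. AKR1A1 is on chromosome 1, 45550543 to 45570049, plus strand. On chromosome 7 lie AKR1B1 (134442350 to 134459284, minus strand), AKR1B10 (134527592 to 134541408, plus strand) and AKR1B15 (134549136 to 134579875, plus strand). On chromosome 10 lie AKR1C1 (4963253 to 4983283, plus strand), AKR1C2 (4987400 to 5018031, minus strand), AKR1C3 (5035354 to 5107686, plus strand) and AKR1C4 (5195462 to 5218949, plus strand). The coding sequences of AKR1B10 and AKR1B15 differ at 62 of 948 aligned bases and are 93.5% identical. Those of AKR1C1 and AKR1C2 differ at 19 of 969 bases, 98.0% identical, while AKR1C1 and AKR1C3 are 91.4% identical. The reads were 100 bases long, and a coding stretch of that length from AKR1C1 occurs unchanged in AKR1C2 at 18.9% of positions. For AKR1B10 the share found in AKR1B15 is 2.00%, and 1.53% occur in AKR1B10P1, a processed pseudogene on chromosome 10 (67750284 to 67751225). Division of reads between these copies rested on the estimate behind the expected counts, so each of these genes has an uncertain assignment.

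The 60 coding bases at which AKR1B10 and AKR1B15 differ most are shown because reads over them can tell the 2 genes apart. They are written 5′ to 3′ on the plus strand of GRCh38 with an intron removed, and the 11 differing bases are in capitals. The AKR1B10 stretch is chr7:134538987-134541075 and the AKR1B15 stretch is chr7:134577756-134579535.
AKR1B10: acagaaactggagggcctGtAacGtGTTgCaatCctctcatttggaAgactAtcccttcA
AKR1B15: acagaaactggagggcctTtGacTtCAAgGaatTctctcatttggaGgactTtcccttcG

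The 60 coding bases at which AKR1C1 and AKR1C2 differ most are shown for the same reason. They lie in AKR1C1 (chr10:4965932-4965991, plus strand) and AKR1C2 (chr10:5001604-5001663, minus strand) without an intron between them, and hold 10 of the 19 differences, again in capitals.
AKR1C1: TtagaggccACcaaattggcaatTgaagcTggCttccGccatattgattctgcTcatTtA
AKR1C2: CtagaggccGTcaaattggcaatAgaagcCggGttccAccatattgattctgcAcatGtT

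The promoters of the AKR1C genes are shown as sequence of close copies. Their part in the levels was not tested. RefSeq promoter windows (GRCh38.p14, 300 bases each, 250 of them before the start) were matched for 6 of the 8 genes, not for AKR1B10 and AKR1B15. The 250 bases before the starts of AKR1C1 and AKR1C2 were 99.6% identical over 246 aligned bases, and those of AKR1C1 and AKR1C4 68.4%. A CCAAT box, read on either strand, occurs once in each window of AKR1C1, AKR1C2, AKR1B1 and the 2 starts of AKR1C3, and not in those of AKR1C4 and AKR1A1. It occurs in 34.6% of all 35116 windows. The core of the antioxidant response element, TGACNNNGC on either strand, was not found in any of the matched windows and occurs in 13.3% of all windows. Sequence farther from the starts was not searched. Stretches of 60 bases around the box before each AKR1C start are given with the box, here on the opposite strand as ATTGG, in capitals. They are chr10:4963313-4963372 (plus), chr10:5003904-5003963 (minus), chr10:5048683-5048742 (plus) and chr10:5094303-5094362 (plus).
AKR1C1: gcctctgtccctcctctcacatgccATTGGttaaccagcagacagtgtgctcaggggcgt
AKR1C2: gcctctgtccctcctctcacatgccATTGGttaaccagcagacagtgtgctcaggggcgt
AKR1C3 first start: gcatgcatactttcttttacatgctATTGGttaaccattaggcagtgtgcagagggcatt
AKR1C3 second start: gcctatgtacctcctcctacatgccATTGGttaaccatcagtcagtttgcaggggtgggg

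Levels in vehicle spanned more than 3 orders of magnitude. Scaled to coding length, AKR1B10 was at 2772 CPM per kilobase and AKR1C2 at 2241, followed by AKR1C3 at 732, AKR1B1 at 583 and AKR1C1 at 322. AKR1A1, the general aldehyde reductase, was at 33.2 CPM per kilobase, AKR1B15 at 13.2 and AKR1C4, which is best known from liver, at 0.526. No neighbours in this order overlapped in vehicle. The 8 genes together held 0.612% ± 0.00920 of counts in vehicle (SD, n = 3), and the 27 treated libraries ranged from 0.631% to 0.797%. Because RNA came from whole cultures, fewer cells of a type and less RNA per cell cannot be told apart in any of these values.

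**Figure D1:**
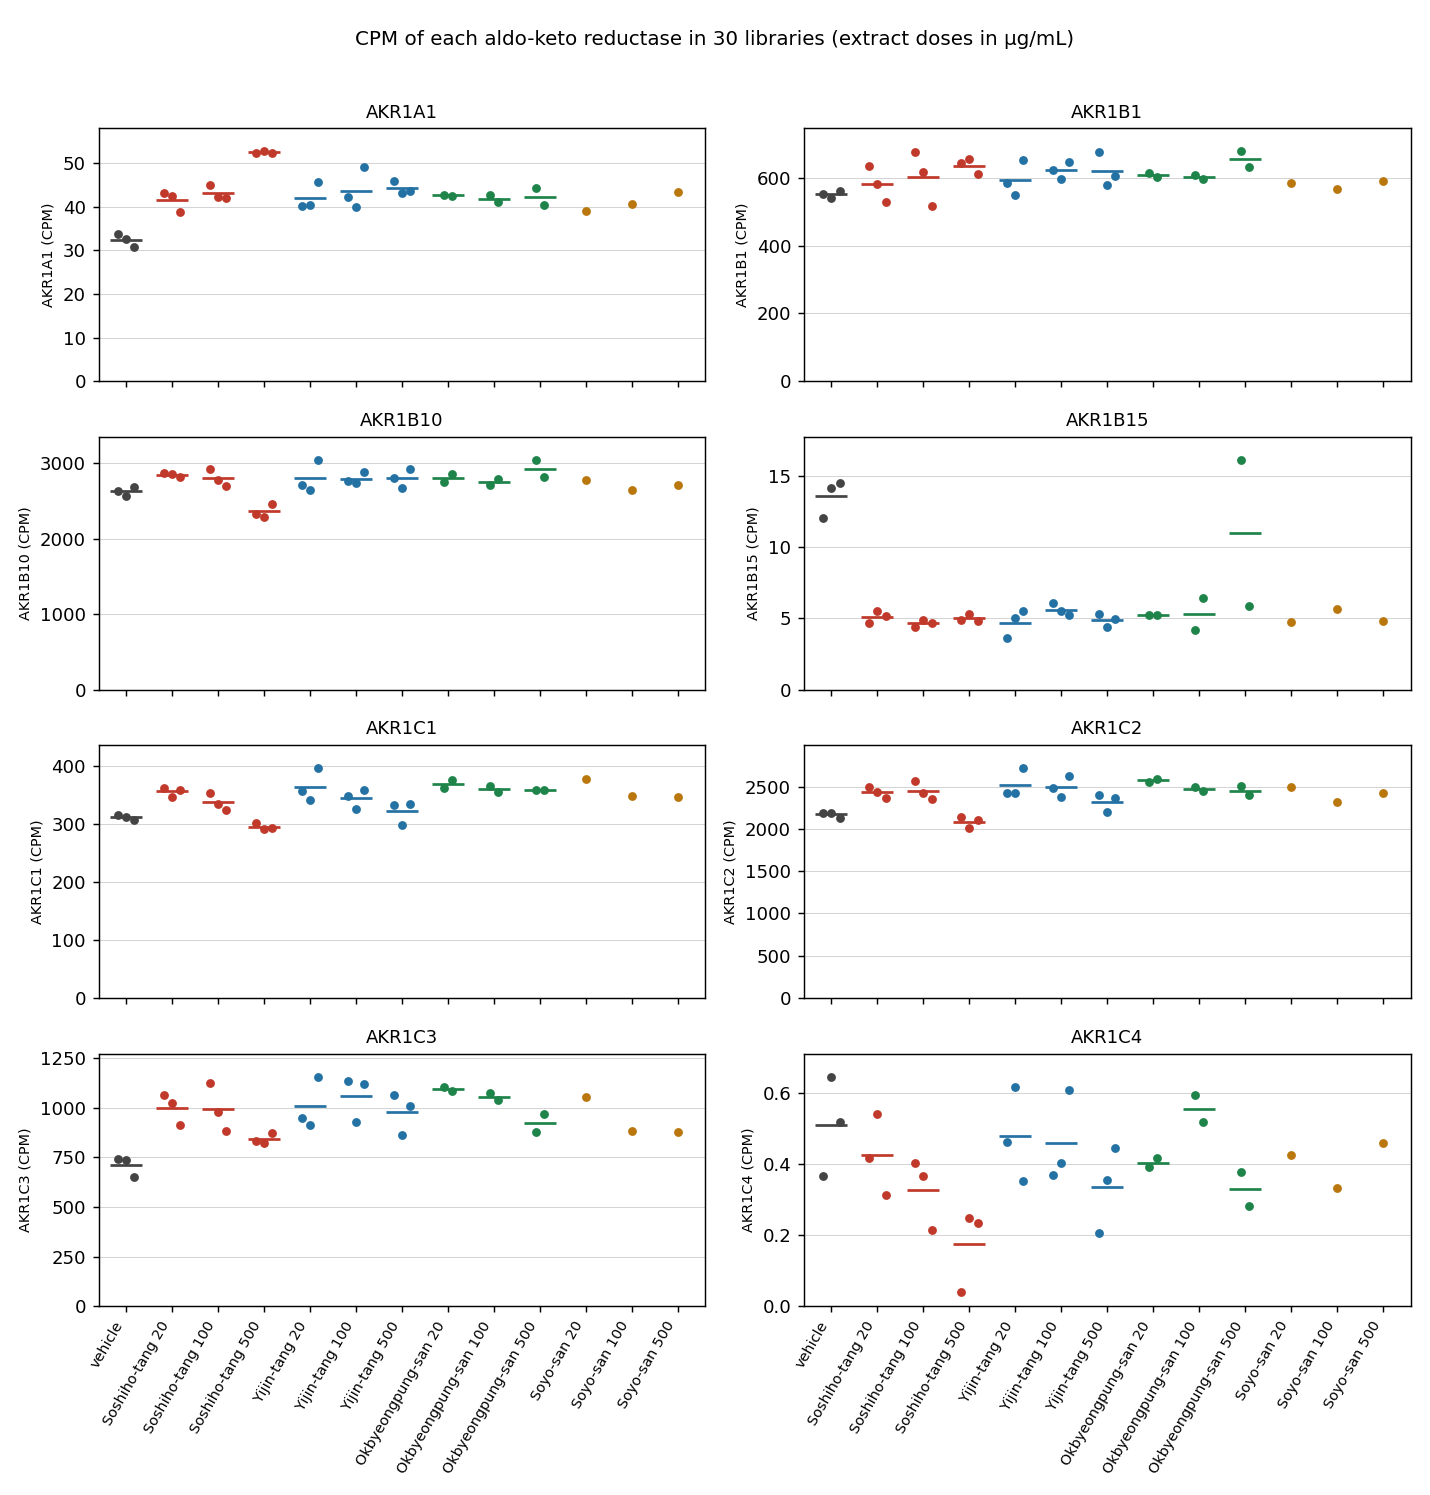
CPM of each gene (vertical axes, linear, from 0) in all 30 libraries, by group on the horizontal axis with extract doses in µg/mL. Points are libraries and bars are group means where a group has more than 1 library. AKR1A1 and AKR1C3 were above vehicle in all 27 treated libraries, AKR1B10 was lowest with Soshiho-tang at 500 µg/mL, and AKR1B15 was high in vehicle and in 1 library of Okbyeongpung-san at 500 µg/mL.

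Each dose of the replicated extracts was compared with vehicle to see which members of the family differed at that dose. With edgeR's quasi-likelihood test and Benjamini-Hochberg adjustment over 17459 genes, 4 of the 6 tested members rose with 20 µg/mL of each extract: AKR1A1, AKR1C1, AKR1C2 and AKR1C3. All genes called higher made up 4.05% of those tested for Soshiho-tang at this dose, 5.10% for Yijin-tang and 5.10% for Okbyeongpung-san. The same 4 members rose with Okbyeongpung-san at 100 µg/mL (4.68% of all genes called higher) and at 500 µg/mL (7.11%). With 100 µg/mL of Soshiho-tang (5.58%) and of Yijin-tang (7.91%), 3 of the 6 rose, AKR1A1, AKR1C2 and AKR1C3. AKR1A1 and AKR1C3 rose with Yijin-tang at 500 µg/mL (8.35%). AKR1A1 alone of the 6 rose with Soshiho-tang at 500 µg/mL (17.1%), and AKR1C4 fell (16.0% of all genes called lower). The 9 comparisons share the vehicle libraries, and their values stand side by side only. An offset of the vehicle libraries as a set, which also stood apart in depth and mitochondrial messenger RNA, was not tested apart from the extracts.

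AKR1B10, which reduces retinals and lipid aldehydes, was the most abundant member and was lowest with Soshiho-tang at 500 µg/mL. The 3 vehicle libraries were at 2624, 2570 and 2689 CPM, and the 3 libraries of Soshiho-tang at 500 µg/mL at 2329, 2291 and 2460 CPM. Every one of these lay below every vehicle library and below each of the other 24 treated libraries (25.0% of all genes tested had all 3 below vehicle). At 20 µg/mL of Soshiho-tang AKR1B10 was at 2867, 2851 and 2812 CPM, and at 100 µg/mL at 2924, 2777 and 2691 CPM. Group means were 2843 CPM at 20 µg/mL and 2797 CPM at 100 µg/mL, beside 2628 CPM in vehicle. The lowest library at 100 µg/mL, at 2691 CPM, was next to the highest vehicle library, at 2689 CPM. The log2 fold change between 500 and 20 µg/mL of Soshiho-tang was −0.27 ± 0.05 (SE, n = 3 and 3), and against vehicle it was −0.16 ± 0.05 at 500 µg/mL and 0.11 ± 0.05 at 20 µg/mL.

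With Yijin-tang and Okbyeongpung-san the group means of AKR1B10 lay above that of vehicle at every dose. They ran from 2794 to 2801 CPM over the 3 doses of Yijin-tang, and from 2750 ± 62.1 at 100 µg/mL to 2927 ± 164.5 CPM at 500 µg/mL with Okbyeongpung-san (SD, n = 2 each). The fold changes against vehicle were between 0.07 ± 0.06, for Okbyeongpung-san at 100 µg/mL, and 0.16 ± 0.06, for the same extract at 500 µg/mL. Between 500 and 20 µg/mL the log2 fold change was 0.0024 ± 0.05 for Yijin-tang and 0.06 ± 0.06 for Okbyeongpung-san. At 500 µg/mL Soshiho-tang minus Yijin-tang was −0.25 ± 0.05, and Soshiho-tang minus Okbyeongpung-san −0.31 ± 0.06. The dose step of Soshiho-tang minus that of Yijin-tang was −0.27 ± 0.07, and minus that of Okbyeongpung-san −0.33 ± 0.08. Without the 500 µg/mL library of Okbyeongpung-san that stands apart below for AKR1B15 (replicate 2), the last value was −0.28 and the difference of the 2 extracts at 500 µg/mL was −0.25.

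AKR1B15, a close copy of AKR1B10 that acts on steroids and retinal, was high in vehicle and low in nearly every treated library. Vehicle libraries were at 12.05, 14.2 and 14.5 CPM, from 230, 285 and 309 expected counts. In 26 treated libraries AKR1B15 lay between 3.62 and 6.41 CPM, with a median of 5.07, so all 26 were below every vehicle library. At least 26 treated libraries lay below vehicle for 7.78% of all genes tested. The exception, the replicate 2 library with 500 µg/mL of Okbyeongpung-san, was at 16.1 CPM (600 expected counts), above all vehicle libraries, while replicate 3 of the same group was at 5.88 CPM. Log2 fold changes against vehicle ran from −1.55 ± 0.23, with Soshiho-tang at 100 µg/mL, to −1.28 ± 0.22, with Yijin-tang at 100 µg/mL, in 8 of the 9 comparisons. For Okbyeongpung-san at 500 µg/mL the value was −0.28 ± 0.23, and −1.21 without its replicate 2. Within batch, 500 minus 20 µg/mL of Okbyeongpung-san gave 1.54 in batch E, which holds that library, and 0.15 in batch D (log2 of CPM + 0.5, 1 library each).

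Between 500 and 20 µg/mL AKR1B15 differed by −0.03 ± 0.24 with Soshiho-tang and 0.05 ± 0.23 with Yijin-tang, where AKR1B10 gave −0.27 and 0.0024. AKR1B15 took 0.514% ± 0.0506 of the counts of the pair in vehicle, 0.133% to 0.230% in the 26 treated libraries and 0.527% in the exception. Its expected counts were fractional in all 30 libraries, as were those of AKR1B10, whereas AKR1A1, AKR1B1 and AKR1C4 had whole counts throughout. With the counts of both genes summed, fold changes followed AKR1B10, from −0.16 with Soshiho-tang to 0.15 with Okbyeongpung-san, both at 500 µg/mL.

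The same libraries stood apart in 2 other measures. AKR1B10P1 was at 4.17 to 4.52 CPM in vehicle, at 1.66 to 2.703 CPM in the 26 treated libraries and at 3.66 CPM in replicate 2 of Okbyeongpung-san at 500 µg/mL. MT-ATP8, a mitochondrially encoded subunit of ATP synthase, was at 1640 to 2134 CPM in vehicle, at 231 to 610 CPM in the 26 libraries and at 1747 CPM in the exception. The exception was the deepest library and the vehicle libraries were the shallowest. The part of these measures in the AKR1B15 levels was not tested. AKR1A1, at 44.2 CPM, and AKR1C3, at 874 CPM, lay within the range of the other treated libraries in that same library. Its AKR1C3 share of AKR1C1 to AKR1C4 counts, 23.4%, was the lowest of the 27 treated libraries, beside 22.9% in the highest vehicle library.

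**Figure D2:**
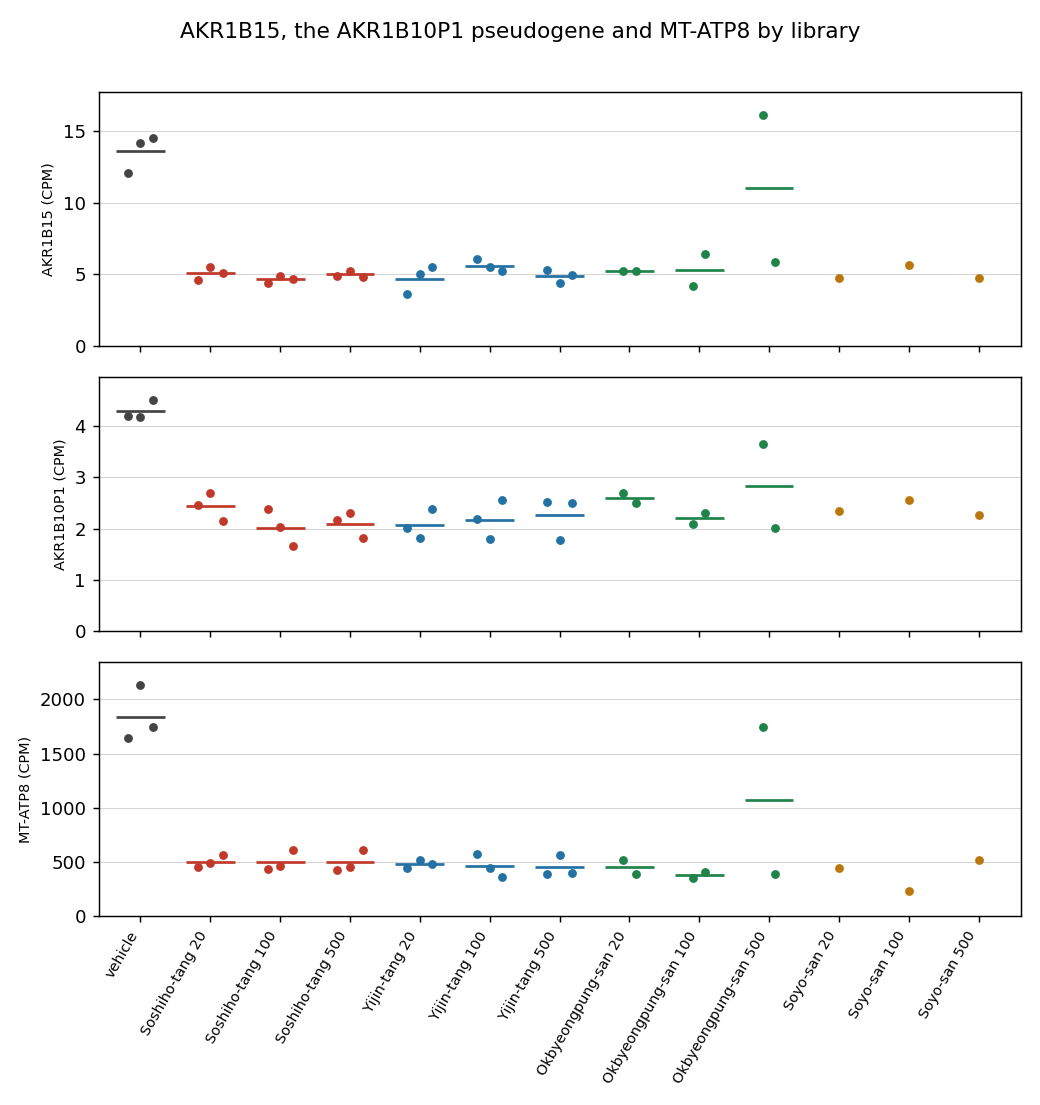
CPM of AKR1B15, the AKR1B10P1 pseudogene and MT-ATP8 (vertical axes, linear, from 0) in all 30 libraries by group, with doses in µg/mL on the horizontal axis. Points are libraries and bars are group means; in each panel the 3 vehicle libraries and 1 of the 2 libraries of Okbyeongpung-san at 500 µg/mL lie above the other 26 libraries.

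AKR1C1 and AKR1C2, which inactivate progesterone and dihydrotestosterone, moved as a pair, upward at the lowest dose of each replicated extract. Both fell back at the highest dose of Soshiho-tang. With Yijin-tang the step from 20 to 500 µg/mL was −0.18 ± 0.05 and −0.12 ± 0.05, not called by edgeR. The difference of this dose step between Soshiho-tang and Yijin-tang was not called either. Because 18.9% of 100-base coding stretches of AKR1C1 occur in AKR1C2, read assignment may enter this pairing, and its part was not tested. AKR1C2 was at 2190, 2193 and 2134 CPM in vehicle. With 20 µg/mL of Soshiho-tang it was at 2497, 2437 and 2370 CPM, and with 500 µg/mL at 2137, 2013 and 2102 CPM. AKR1C2 was called higher than vehicle at the lowest dose (adjusted p = 0.0473, edgeR), as were 4.05% of all genes. The highest dose overlapped the vehicle libraries. Between 500 and 20 µg/mL of Soshiho-tang AKR1C2 fell by 0.22 ± 0.05 on the log2 scale (adjusted p = 0.00234, edgeR; lower in 3 of 3 libraries).

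AKR1C1 was at 316, 312 and 308 CPM in vehicle. It was at 363, 348 and 360 CPM with 20 µg/mL of Soshiho-tang and at 302, 292 and 293 CPM with 500 µg/mL. All libraries at the lowest dose were above those at the highest dose (19.8% of all genes tested had no overlap of the doses in that direction). All at the highest dose were below vehicle, as for 25.0% of all genes tested. AKR1C1 was not called against vehicle at 500 µg/mL (−0.08 ± 0.05, adjusted p = 0.286, edgeR). Between the doses AKR1C1 fell by 0.27 ± 0.05 (adjusted p = 0.00066).

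With 20 µg/mL the rises of AKR1C1 and AKR1C2 against vehicle were 0.19 ± 0.05 and 0.16 ± 0.05 for Soshiho-tang, 0.23 ± 0.05 and 0.21 ± 0.05 for Yijin-tang, and 0.24 ± 0.06 and 0.24 ± 0.06 for Okbyeongpung-san. Adjusted p ran from 0.00789 to 0.0473 in edgeR's test. These calls were not stable when a library was left out. For Soshiho-tang both calls were lost without any 1 of its 3 libraries or of the 3 vehicle libraries (folds 0.18 to 0.21 for AKR1C1 and 0.15 to 0.18 for AKR1C2). For Okbyeongpung-san both were lost without replicate 2 or replicate 3 (0.225 to 0.27 and 0.24 to 0.26), and for Yijin-tang without replicate 3 (0.16 for each).

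At higher doses AKR1C1 and AKR1C2 rose in fewer comparisons. AKR1C2 rose by 0.17 ± 0.05 with Soshiho-tang and 0.20 ± 0.05 with Yijin-tang at 100 µg/mL. With Okbyeongpung-san, AKR1C1 and AKR1C2 rose by 0.21 ± 0.06 and 0.19 ± 0.06 at 100 µg/mL and by 0.20 ± 0.06 and 0.18 ± 0.06 at 500 µg/mL. The rise of AKR1C2 with Soshiho-tang at 100 µg/mL was lost without its replicate 1 or 2 (0.14 and 0.18) or without any vehicle library (0.16 to 0.18), and that with Yijin-tang without its replicate 3 (0.16). With Okbyeongpung-san at 100 µg/mL both calls were lost without either of its libraries or any vehicle library (0.19 to 0.23 for AKR1C1 and 0.17 to 0.20 for AKR1C2). At 500 µg/mL both were lost without replicate 2 (0.21 and 0.14) or any vehicle library (0.195 to 0.21 and 0.16 to 0.18). Yijin-tang at 500 µg/mL gave 0.05 ± 0.05 for AKR1C1 and 0.10 ± 0.05 for AKR1C2, which were not called (adjusted p = 0.627 and 0.211).

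AKR1C3, the 17-ketosteroid reductase that also makes prostaglandin F, was higher than vehicle in every treated library. Vehicle libraries were at 742, 735 and 650 CPM, and the 27 treated libraries lay between 822 and 1156 CPM with a median of 978. AKR1C3 and AKR1A1 were the 2 members with all 27 above all 3 vehicle libraries, as were 3.61% of the genes tested. AKR1C3 rose in 8 of the 9 comparisons, by 0.38 ± 0.11 (Okbyeongpung-san at 500 µg/mL) to 0.62 ± 0.11 (the same extract at 20 µg/mL), with adjusted p from 0.000396 to 0.0205. The first of these calls was lost without replicate 3 of that group (0.30) or vehicle replicate 3 (0.32). Without its replicate 2 it held, at 0.45 (adjusted p = 0.038).

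For Soshiho-tang at 500 µg/mL AKR1C3 was at 833, 822 and 871 CPM, all above vehicle, as for 25.7% of all genes tested. It gave 0.25 ± 0.10, just outside the threshold (adjusted p = 0.0502, edgeR). It was called there by DESeq2 at 0.24 (adjusted p = 0.041). Its levels at 20 µg/mL were 1061, 1023 and 911 CPM, all higher than those at 500 µg/mL, as for 19.8% of all genes tested. The difference of −0.25 ± 0.10 was not called either (adjusted p = 0.0747, edgeR). It was called without replicate 3 at 20 µg/mL, at −0.31, and by DESeq2, at −0.25 (adjusted p = 0.0472).

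Shares of counts within the AKR1C cluster compare the copies inside each library. AKR1C1 made up 12.6% ± 0.0850 of AKR1C1 and AKR1C2 counts in vehicle (SD, n = 3) and 12.5% ± 0.355 in the 27 treated libraries (range 11.95% to 13.2%), so the groups overlapped. AKR1C3 made up 22.2% ± 1.01 of AKR1C1 to AKR1C4 counts in vehicle and 26.3% ± 1.25 in treated libraries, from 23.4% to 28.6%, all above the highest vehicle library at 22.9%. Mitochondrial messenger RNA, at 10.5% to 10.9% of counts in vehicle and 6.22% to 9.89% in treated libraries, also separated the vehicle libraries from all others. Its part in the share was not tested.

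**Figure D3:**
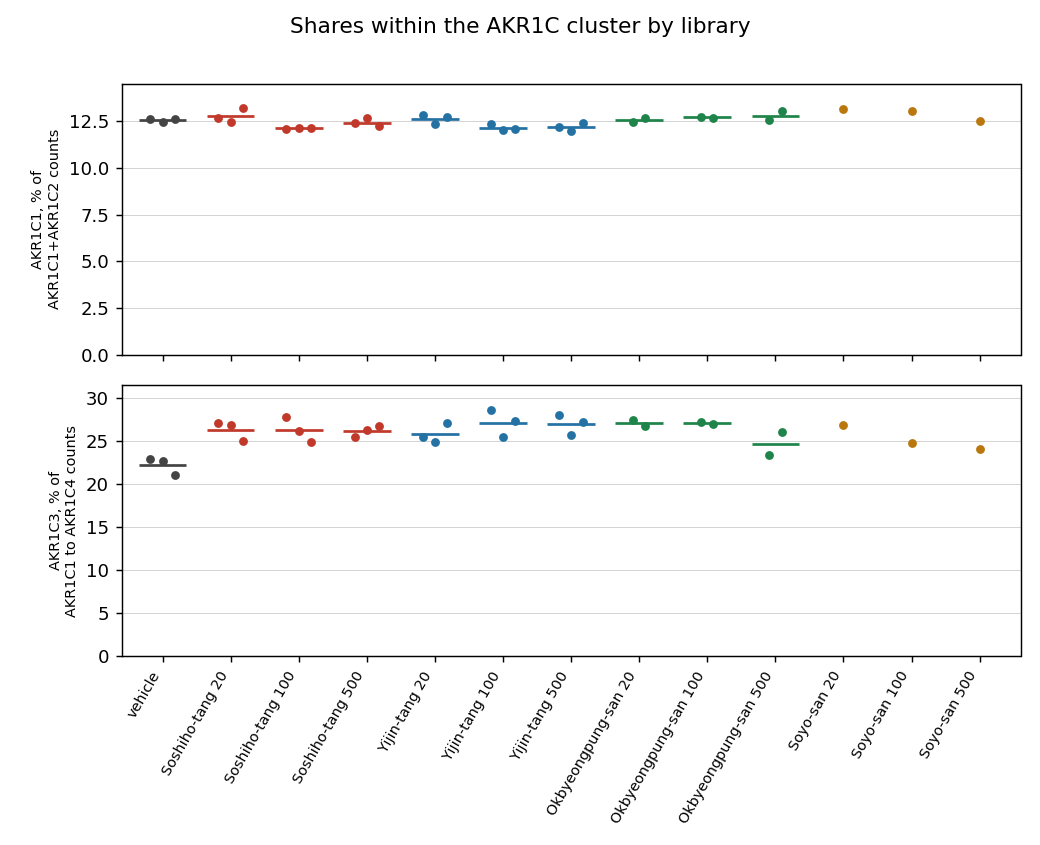
Percent of AKR1C1 among AKR1C1 and AKR1C2 counts (upper panel) and of AKR1C3 among AKR1C1 to AKR1C4 counts (lower panel), both axes linear from 0, in all 30 libraries by group with doses in µg/mL. Points are libraries and bars are group means; the upper share lies between 11.95% and 13.2% in all libraries, and the lower is below 23% only in vehicle.

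AKR1C4, a bile acid and steroid enzyme of liver, was close to the detection limit, with 1 to 21 counts per library. Vehicle libraries had 7, 13 and 11 counts (0.367, 0.646 and 0.517 CPM), and Soshiho-tang at 500 µg/mL had 1, 7 and 7 counts (0.0389, 0.247 and 0.2345 CPM), so the groups did not overlap, as for 25.0% of all genes tested in that direction. The log2 fold change there was −1.50 ± 0.45 (adjusted p = 0.0116), with a 95% interval from −2.38 to −0.625, and −1.24 ± 0.43 against 20 µg/mL (adjusted p = 0.0442). The call against vehicle was lost without replicate 1 of Soshiho-tang at 500 µg/mL (−1.07) or vehicle replicate 2 (−1.30). That against 20 µg/mL was lost without the same Soshiho-tang library (−0.81) or replicate 1 (−1.25) or 2 (−1.01) at 20 µg/mL. The hepatocyte markers summed to at most 0.150 CPM in any library.

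AKR1B1, the aldose reductase that opens the polyol pathway, was above every vehicle library in 24 of the 27 treated libraries, as were 10.7% of all genes tested in at least 24, but was called in 0 of the 9 comparisons with vehicle by edgeR, with 4 at an unadjusted p under 0.05 and 2 called by DESeq2. Vehicle was at 554, 541 and 562 CPM, and Soshiho-tang at 500 µg/mL at 644, 656 and 611 CPM. The groups did not overlap, as for 25.7% of all genes tested in that direction, and the log2 fold change of 0.21 ± 0.08 lay on the threshold (adjusted p = 0.05001 by edgeR and 0.0427 by DESeq2). Okbyeongpung-san at 500 µg/mL gave 0.25 ± 0.09 (adjusted p = 0.0614 by edgeR and 0.0391 by DESeq2). Without its replicate 2 the last value was 0.195. Without the filter on low counts AKR1B1 was called at 500 µg/mL of all 3 replicated extracts and at 100 µg/mL of Yijin-tang, at folds of 0.19 to 0.28. With only the compared groups in the fit it was called in 5 of the 9, Soshiho-tang at 500, Yijin-tang at 500 and 100, and Okbyeongpung-san at 100 and 20 µg/mL (adjusted p = 0.000435 to 0.0289). With a replicate block it was called at 500 µg/mL of Soshiho-tang and of Okbyeongpung-san (adjusted p = 0.0368 and 0.0268). In the edgeR test over all groups, folds in the other 7 comparisons lay between 0.08 and 0.17. Replicates spread widely at lower doses, from 518 to 676 CPM with Soshiho-tang at 100 µg/mL.

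AKR1A1 rose in all 9 comparisons with vehicle and was the member that rose most with Soshiho-tang at 500 µg/mL. This gene encodes an aldehyde reductase that also acts in ascorbate and nitrosothiol metabolism. Vehicle libraries were at 33.6, 32.6 and 30.7 CPM, and Soshiho-tang at 500 µg/mL was at 52.4, 52.6 and 52.3 CPM. These were the 3 highest of all 30 libraries, and the remaining treated libraries lay between 38.8 and 49.1 CPM. The log2 fold change was 0.70 ± 0.07 (adjusted p = 3.26e-08), beside 0.36 ± 0.07 to 0.45 ± 0.07 in the other 8 comparisons (adjusted p from 0.000134 to 0.00409). The call for Okbyeongpung-san at 100 µg/mL was lost without its replicate 2 (0.35), and that at 500 µg/mL held without its replicate 2 (0.32, adjusted p = 0.0372).

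**Figure D4:**
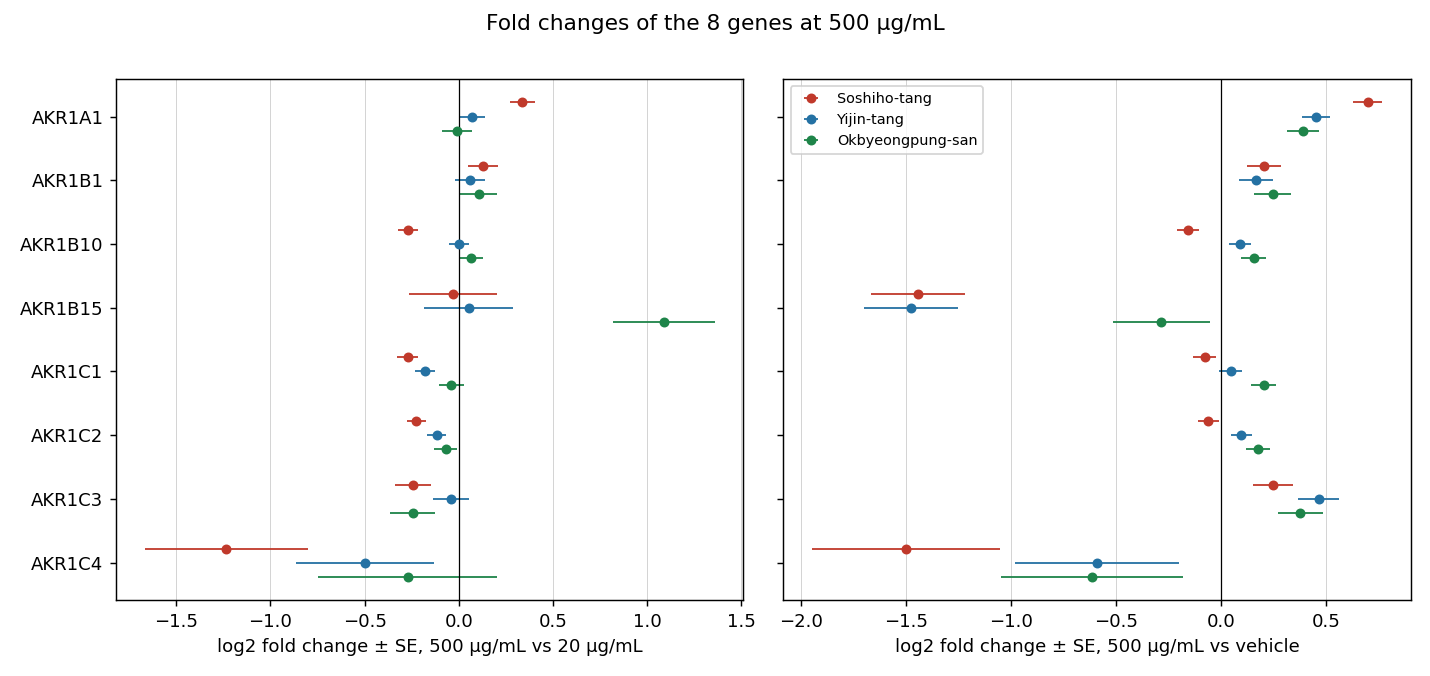
Log2 fold change with its standard error (horizontal axes, linear) of each gene at 500 µg/mL against 20 µg/mL (left) and against vehicle (right), coloured by extract, with n = 3 libraries per group and 2 for Okbyeongpung-san. Against 20 µg/mL, Soshiho-tang lies above 0 for AKR1A1 (0.34) and below 0 for AKR1B10, AKR1C1, AKR1C2, AKR1C3 and AKR1C4 (−0.27, −0.27, −0.22, −0.25 and −1.24), of which AKR1C3 was not called; AKR1B10 and AKR1B15 were not tested.

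The dose step from 20 to 500 µg/mL compares no vehicle libraries, although they enter the filter, the scaling and the shared estimate of spread. With Soshiho-tang AKR1A1 rose, by 0.34 ± 0.07 from 43.2, 42.5 and 38.8 CPM (adjusted p = 0.000545), and 10.3% of all genes tested were called higher. AKR1C1, AKR1C2 and AKR1C4 fell (10.2% of all genes called lower). With Yijin-tang edgeR called 0 of the 6 members, where 0.710% of all genes were called. At an unadjusted p under 0.05 there were 2, AKR1C1 (−0.18 ± 0.05) and AKR1C2 (−0.12 ± 0.05), and DESeq2 called 1, AKR1C1 (adjusted p = 0.0365). With Okbyeongpung-san edgeR called 0 (1.61% of all genes), with 1 at an unadjusted p under 0.05, AKR1C3 (−0.24 ± 0.12), and 0 by DESeq2. In both batches AKR1C3 was lower at 500 than at 20 µg/mL of Okbyeongpung-san, with differences of −0.34 in batch E and −0.16 in batch D on the log2 scale (CPM + 0.5).

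Extracts were compared directly at 500 µg/mL to see where the family differed between formulas. AKR1A1 was higher with Soshiho-tang than with Yijin-tang, by 0.25 ± 0.07 (adjusted p = 0.0135; 6.17% of all genes called higher), and than with Okbyeongpung-san, by 0.31 ± 0.07 (adjusted p = 0.00456; 9.14%). In each case every Soshiho-tang library was above every library of the other extract, as for 16.0% and 19.2% of all genes tested. The others lay at 43.2 to 45.8 CPM for Yijin-tang and at 44.2 and 40.3 CPM for Okbyeongpung-san. AKR1C2 was lower with Soshiho-tang than with Yijin-tang, with a difference of −0.16 ± 0.05 (adjusted p = 0.0435; 6.45% called lower). It was also lower than with Okbyeongpung-san, with a difference of −0.24 ± 0.06, as was AKR1C1, with −0.28 ± 0.06 (adjusted p = 0.00491 and 0.00171; 9.57%). Between Yijin-tang and Okbyeongpung-san edgeR called 0 of the 6 members (2.29% of all genes), with 1 at an unadjusted p under 0.05, AKR1C1 (−0.16 ± 0.06), and 0 by DESeq2. The 95% interval for AKR1A1 in that last comparison ran from −0.08 to 0.21.

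Several of these calls rested on single libraries. AKR1A1 against Yijin-tang was no longer called without replicate 2 or 3 of Yijin-tang at 500 µg/mL (0.23 and 0.24). AKR1C2 against Yijin-tang was no longer called without any 1 of the Soshiho-tang libraries (−0.18 to −0.13) or replicate 1 or 3 of Yijin-tang (−0.13 and −0.14). AKR1C2 against Okbyeongpung-san was no longer called without replicate 2 of that extract (−0.20), while AKR1A1 and AKR1C1 were (0.38 and −0.28). With only the groups compared in the fit, none of the 3 calls against Okbyeongpung-san held (adjusted p = 0.0641 to 0.101).

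The difference of the dose steps between extracts was tested as an interaction. For AKR1A1 the step was larger with Soshiho-tang than with Okbyeongpung-san by 0.35 ± 0.10 (adjusted p = 0.0442; 3.25% of all genes called higher). That call was lost in 9 of 10 fits that left out a library. For Soshiho-tang minus Yijin-tang edgeR called 0 of the 6 members (4.02% of all genes), with 1 at an unadjusted p under 0.05, AKR1A1 at 0.27 ± 0.09 (adjusted p = 0.126), and 0 by DESeq2. For Yijin-tang minus Okbyeongpung-san it called 0 (0.160%), with 0 at an unadjusted p under 0.05 and 0 by DESeq2. A difference between the dose steps of AKR1C1 and AKR1C2 in Soshiho-tang and Yijin-tang was not called (−0.09 ± 0.08 and −0.11 ± 0.07), with 95% intervals from −0.24 to 0.06 and −0.25 to 0.0345.

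Soyo-san, with 1 library per dose in batch D, lay within the range of the other treated libraries for each gene. AKR1B10 was at 2780, 2649 and 2704 CPM at 20, 100 and 500 µg/mL, AKR1C3 at 1052, 880 and 879 CPM, and AKR1A1 at 38.95, 40.7 and 43.35 CPM. AKR1B15 was at 4.745, 5.635 and 4.78 CPM, below every vehicle library. These values have no replicate check.

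Genes that share substrates or control with the family were counted from lists, which were chosen with earlier results of these data known. Each count stands beside 10.3% of all genes called higher and 10.2% called lower between 20 and 500 µg/mL of Soshiho-tang. Among 25 NRF2 targets outside the family, 4 rose and 10 fell over that step, with a median log2 fold change of −0.09 beside 0.0028 over all genes tested. HMOX1 (haem oxygenase 1) rose by 0.62 ± 0.06 and FTH1 (ferritin heavy chain) by 0.24 ± 0.08, while FTL (ferritin light chain) fell by 0.30 ± 0.08 and TXNRD1 (thioredoxin reductase) by 0.19 ± 0.05. The others that rose, named after their values were seen, were SLC7A11, the cystine transporter, and ABCC3, an export pump. NQO1, a quinone reductase, gave −0.13 ± 0.05 and GCLM, a subunit of glutathione synthesis, 0.07 ± 0.07, and neither was called (adjusted p = 0.0729 and 0.5205). GPX2, a glutathione peroxidase also named after its value was seen, fell by 1.03 ± 0.15. Other genes among the 10 that fell are not named here, while all 4 that rose are.

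Of 8 NRF2 regulators 4 rose and 1 fell over the same step, beside 10.3% and 10.2% of all genes, with a median of 0.16. SQSTM1, which binds KEAP1, rose by 0.68 ± 0.06, from 801 to 1280 CPM on average, and the small MAF partners MAFG and MAFK rose by 0.29 ± 0.06 and 0.22 ± 0.08. MAFF also rose and CUL3 fell, both named after their values were seen. SQSTM1 and HMOX1 rose too between 20 and 500 µg/mL of Yijin-tang (0.26 ± 0.06 and 0.38 ± 0.06), where MAFK fell by 0.39 ± 0.08. With Okbyeongpung-san they rose over the same doses by 0.44 ± 0.07 and 0.84 ± 0.07. Without replicate 2 at 500 µg/mL HMOX1 was still called there, at 0.72, while SQSTM1 was not, at 0.34 (edgeR adjusted p = 0.072).

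Among 19 other genes of carbonyl and aldehyde handling, 1 rose and 5 fell between 20 and 500 µg/mL of Soshiho-tang (median −0.04), beside 10.3% and 10.2% of all genes. PTGR1, which reduces lipid enals, fell by 0.22 ± 0.04. The others called, named after their values were seen, were CBR1, ALDH9A1, GLO1 and CRYZ, which fell, and ALDH2, which rose. The abundant aldehyde dehydrogenases ALDH1A1 and ALDH3A1 gave −0.01 ± 0.05 and −0.16 ± 0.12 and were not called (adjusted p = 0.884 and 0.384). Against vehicle ALDH1A1 rose in 8 of 9 comparisons, with folds over all 9 from 0.04 to 0.20. Of the 19 genes 10 rose with Yijin-tang at 500 µg/mL (8.35% of all genes) and 3 with Okbyeongpung-san at 500 µg/mL (7.11%). With Soshiho-tang at 500 µg/mL 8 rose (17.1%) and 3 fell (16.0%). In the remaining comparisons with vehicle between 5 and 8 rose (4.05% to 7.91% of all genes).

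Of 7 tested genes among the other aldo-keto reductases, 2 rose over the Soshiho-tang step (median 0.17), AKR1E2, a close relative in the AKR1 family, by 0.34 ± 0.09 and KCNAB2, a potassium channel subunit with the same fold, by 0.31 ± 0.08. AKR7A2, an aflatoxin aldehyde reductase, gave −0.10 ± 0.07 (adjusted p = 0.332). Of 6 genes of the polyol and fructose pathway 2 fell, SLC5A3, the inositol transporter, by 0.46 ± 0.12 and HK1, a hexokinase, by 0.34 ± 0.05. SORD, the sorbitol dehydrogenase that follows AKR1B1 in that pathway, gave −0.08 ± 0.04 (adjusted p = 0.209).

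In the retinoid list 1 of 13 tested genes rose and 2 fell over that step, which is near the 10.3% and 10.2% of all genes. They were RETSAT, then CYP26B1 and CRABP2, named after their values were seen. RDH10, RDH11 and DHRS3, which interconvert retinol and retinal, gave −0.15 ± 0.09, −0.01 ± 0.04 and 0.16 ± 0.07 and were not called (adjusted p = 0.257, 0.876 and 0.117). DHRS3 rose against vehicle in 7 of 9 comparisons, with folds over all 9 from 0.22 to 0.78. Of 15 steroid genes 1 rose, beside 10.3% of all genes, HSD17B12 by 0.14 ± 0.05, and 4 fell, beside 10.2%, SRD5A3, STS, SULT2B1 and SULT1E1, the last 4 named after their values were seen. HSD17B4 and HSD17B10 gave −0.01 ± 0.05 and −0.03 ± 0.07 (adjusted p = 0.9455 and 0.845). Among 10 prostaglandin genes PTGES rose and PLA2G4A fell, again near those shares of all genes, both named after their values were seen, and HPGD, which degrades prostaglandins, gave −0.18 ± 0.07 (adjusted p = 0.061). PTGES2 and PTGES3 gave 0.10 ± 0.09 and −0.15 ± 0.07 (adjusted p = 0.474 and 0.123).

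The genes whose log2 CPM followed each member most closely over the 30 libraries were listed among 11349 candidates outside the family, as a description. The libraries share depth and group differences, so these values carry no test. AKR1B10 was nearest to FEN1 (Pearson r = 0.865), PTGR1 (0.857) and VPS26B (0.844). AKR1C2 and AKR1C1 were both nearest to CYB5A (0.918 and 0.869), with r = 0.923 between them. AKR1C3 was nearest to the respiratory chain genes COX7B (0.963) and NDUFC2 (0.963) and to ATP5MJ (0.952), which like AKR1C3 had a higher mean in treated libraries than in vehicle. AKR1B15 was nearest to NOP14 (0.897), the pseudogene PTMAP5 (0.890) and PGAM5 (0.879), and had r = 0.05 with AKR1B10. AKR1A1 was nearest to C1orf43 (0.915), SQOR (0.913) and UCHL1 (0.912), AKR1B1 to SSR4 (0.929), RPL7A (0.908) and LAGE3 (0.903), and AKR1C4 to KNSTRN (0.730), CABYR (0.726) and TRIM32 (0.725).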

How the data were processed

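Messenger RNA libraries from total RNA of A549 cells (30 libraries) were sequenced with a directional kit and 100-base paired-end reads, per the labels' protocols. The authors deposited expected counts per Ensembl gene; RSEM 1.3.3, STAR 2.7.3a, Trim Galore 0.6.5, FastQC 0.11.9 and build GRCh38 are named in the submitters' processing notes, and the annotation release and strand setting are not given in the sources used here. Between 9.09% and 11.6% of values per library were fractional, and they were rounded to whole numbers.

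Symbols came from Ensembl identifiers, 41209 of 60675 matched. A single edgeR 4.0.16 model (R 4.3.3) took in the 27 libraries from 10 replicated groups: TMM, filterByExpr, glmQLFit and glmQLFTest, Benjamini-Hochberg adjustment over 17459 genes, and a threshold of 0.05. All 8 genes passed the filter. Library totals ran from 19833144 to 38008463 counts, and variation between replicates beyond counting was 6.89% as a common coefficient of variation. CPM were computed on TMM-scaled totals, and intervals (95%) cover the fitted error only. The procedure was tested on simulated data.

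The 18 comparisons were each dose against vehicle, 500 against 20 µg/mL, extracts against each other at 500 µg/mL, and differences of dose steps. Alternatives were DESeq2 1.42.0 (its test, and its size factors in edgeR), no filter, totals without mitochondrial messenger RNAs, a replicate block, a batch term, only the compared groups, summed paralogs, and each library left out. Named genes were the 8 members, the 3 most abundant tested genes of each list with NQO1, GCLM, TXNRD1 and HMOX1, and the 3 genes with the highest correlation to each member. Members and lists were chosen with earlier results of these data known. Coding sequences were aligned with Biopython 1.88 from GENCODE 29 transcripts. No library pair agreed within sampling noise (lowest chi-square per degree of freedom 2.07).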

Additional observations from a re-analysis of the deposited data

Results flagged for a closer look

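The rise of AKR1A1 from 20 to 500 µg/mL was larger with Soshiho-tang than with Okbyeongpung-san by 0.35 on the log2 scale, by the test of that difference itself (SE 0.10; edgeR adjusted p = 0.0442). Levels went from 41.5 ± 2.34 to 52.4 ± 0.177 CPM with Soshiho-tang (SD, n = 3) and from 42.6 ± 0.167 to 42.3 ± 2.75 CPM with Okbyeongpung-san (SD, n = 2). The difference kept its direction, between 0.29 and 0.42, in the 9 fits without 1 library in which the call was lost, namely those without replicate 2 or 3 of Okbyeongpung-san at 20 or at 500 µg/mL, replicate 2 or 3 of Soshiho-tang at 20 µg/mL, or any replicate of Soshiho-tang at 500 µg/mL.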

How the results depend on the processing

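Counts of called members among the 6 tested changed under these settings. For Soshiho-tang at 500 µg/mL against vehicle the count was 2, and 4 with DESeq2's test, without the filter on low counts, and with totals that leave out mitochondrial messenger RNAs. The interaction of Soshiho-tang with Okbyeongpung-san went from 1 to 2 with DESeq2, to 0 without the filter, and to 0 with only the compared groups in the fit (AKR1A1 adjusted p = 0.0753 and 0.0766). With only the compared groups, Okbyeongpung-san at 500 µg/mL against vehicle went from 4 to 0 (lowest adjusted p = 0.0501), Soshiho-tang against Okbyeongpung-san from 3 to 0 and Soshiho-tang against Yijin-tang from 2 to 1, the last also with totals that leave out mitochondrial messenger RNAs. The same setting also added calls: Soshiho-tang at 500 µg/mL against vehicle went from 2 to 3 (AKR1B1 and AKR1C3 gained, AKR1C4 below the filter), Yijin-tang at 500 from 2 to 3, Yijin-tang at 100 from 3 to 4 and Okbyeongpung-san at 100 and 20 from 4 to 5 each (AKR1B1 gained). Soshiho-tang at 500 against 20 µg/mL gained AKR1C3, with AKR1C4 again below the filter, and Yijin-tang at 20 µg/mL lost AKR1C2 (adjusted p = 0.00869 and 0.0547). A batch term took Okbyeongpung-san at 100 µg/mL from 4 to 2. DESeq2 called 1 for Yijin-tang at 500 against 20 µg/mL. With each library left out in turn, the counts against vehicle lay between 1 and 2 for Soshiho-tang at 500 µg/mL, at 2 for Soshiho-tang at 20 µg/mL, between 2 and 4 for Yijin-tang and Okbyeongpung-san at 20 µg/mL, between 1 and 2 for Okbyeongpung-san at 100 µg/mL, and between 1 and 3 for Okbyeongpung-san at 500 µg/mL. They lay between 0 and 1 for Soshiho-tang against Yijin-tang and for the interaction of Soshiho-tang with Okbyeongpung-san. Where 1 Okbyeongpung-san library was left, it is assumed to vary like the other groups. The cause of these changes was not tested.

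Whether replicate numbers pair the libraries is unsettled. The correlations of same-numbered deviations lay between −0.191 and 0.254. In 0 of 9 comparisons with 3 shared numbers were all above 0.1. In 3 of the 9 every library correlated best with its own number, a hint from the data. Library names also group the extract libraries by replicate number and give vehicle a separate series, with no statement that these are blocks. A replicate block took Soshiho-tang at 500 µg/mL against vehicle to 4 called members and the calls over all genes in that comparison from 5776 to 6057. Over all genes the block gave more calls in every comparison. It took Yijin-tang against Okbyeongpung-san at 500 µg/mL from 400 to 636 calls and their interaction from 28 to 49.

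Summing paralogs turned the direction of minor members, by construction, since the sum follows the abundant copy. For AKR1B15 the summed counts gave log2 folds against vehicle of 0.061, 0.086, 0.085, 0.109, 0.084, 0.085 and 0.087 (Okbyeongpung-san at 100 and 20 µg/mL, Soshiho-tang at 100 and 20, Yijin-tang at 100, 20 and 500). For AKR1C4 the sum of AKR1C1 to AKR1C4 gave 0.337 and 0.226 (Okbyeongpung-san at 20 and 500 µg/mL), 0.243, 0.247 and 0.013 (Soshiho-tang at 100, 20 and 500) and 0.288, 0.285 and 0.182 (Yijin-tang at 100, 20 and 500). DESeq2's size factors changed 1 of 144 single-gene results. Depth limits AKR1C4, at 1 to 21 counts, and read assignment limits AKR1B15.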
